A study of Mus musculus with 12 samples.

Results

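The bone morphogenetic protein (BMP) pathway was followed in lung cells sorted for Pdgfra through 9 genes, chosen by symbol from 40760 genes in the count table. They were the ligand genes Bmp2, Bmp4, Bmp5 and Bmp6, the receptor genes Bmpr1a and Bmpr2, the secreted antagonist gene Grem1 and the target genes Id1 and Id3. On GRCm38 they lie on chromosome 2 (Bmp2, Grem1 and Id1), 14 (Bmp4 and Bmpr1a), 9 (Bmp5), 13 (Bmp6), 1 (Bmpr2) and 4 (Id3). All 9 were present under 1 symbol each and all 9 passed the filter on low counts, as did 17418 genes of the table. RNA-seq was carried out on Cd140a+ (Pdgfra+) cells sorted from the lungs of male mice, in 12 libraries of 4 groups with 3 libraries each. The WT vehicle and WT bleo groups were wild-type mice given vehicle or bleomycin (bleo), a drug that injures the lung and is used to induce pulmonary fibrosis in mice. The Pear1-/- vehicle and Pear1-/- bleo groups were labelled as homozygous for loss of Pear1, a membrane receptor also found on platelets and endothelium. By the study's methods the Pear1 allele was a knockout-first gene trap inserted in an intron and carried by every cell of the mouse, on a C57BL/6 background, and bleo was delivered into the trachea as an aerosol. The study's methods give young adult males as its default and name a pair of bleo doses, without saying which dose these mice had. They state a day for lung function and pathology, and neither that day nor a number of mice is tied to these libraries in the sources used here, so p-values measure the spread between these libraries.

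BMP ligands are secreted as dimers and bind a complex of type I receptors such as Bmpr1a and type II receptors such as Bmpr2. The type I receptor then phosphorylates the SMAD1, SMAD5 and SMAD9 proteins, which enter the nucleus with SMAD4 and switch on target genes, of which the Id genes are the best known. Gremlin-1, the product of Grem1, is a secreted protein that binds BMP2, BMP4 and BMP7 and keeps them from their receptors. It is known for its presence in fibrotic lung.

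Total counts ranged from 6702948 to 10447101 per library, and 3 counts, the floor used here for detection, were worth 0.287 to 0.448 CPM, the count scaled to a common library total. WT vehicle replicate 2 stood apart from its group. The chi-square per degree of freedom over genes was 21.2 and 21.8 between it and replicates 1 and 3, which differed from each other by 1.58, and lay between 1.35 and 4.82 within the other groups. Calls of the 9 genes that change when that library is left out are therefore given both ways. The gene-level Pear1 count was not lower in the Pear1-/- groups beyond the spread, as the vehicle groups overlapped and the bleo groups differed the other way. The libraries had Pear1 normalized counts of 576, 545 and 519 in WT vehicle and 511, 501 and 547 in Pear1-/- vehicle. With bleo it had 256, 239 and 266 in WT and 355, 372 and 344 in Pear1-/-. It was 0.08 lower on the log2 scale in Pear1-/- vehicle than in WT vehicle (SE 0.073, edgeR quasi-likelihood test, adjusted p = 0.470) and 0.48 higher in Pear1-/- bleo than in WT bleo (SE 0.077, adjusted p = 0.00012). A gene-level count adds up all exons, including those ahead of the trap, so it does not test the allele, and the groups are named here by their labels alone.

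Pdgfra, the sorting marker, fell with bleo by 1.74 on the log2 scale in WT (SE 0.068, adjusted p = 8.51e-12) and by 0.80 in Pear1-/- (SE 0.066, adjusted p = 7.35e-08). Its normalized count was 4565 ± 325 in WT vehicle and 4165 ± 39.1 in Pear1-/- vehicle (SD, n = 3 each). With bleo it was 1360 ± 29.9 in WT and 2392 ± 18.8 in Pear1-/-. Markers of other cell types were also counted in every group, and no gene of the 6 marker lists was at the floor in all libraries of a group. Summed over 10 leukocyte genes, the level was 3105 to 3708 CPM in WT vehicle and 3624 to 3823 CPM in Pear1-/- vehicle. With bleo it was 14311 to 14527 CPM in WT and 6830 to 7012 CPM in Pear1-/-. In WT 8 of the 10 rose with bleo and 1 fell. In Pear1-/- 6 rose, among them the macrophage genes Cd68 and Lyz2, while the B cell gene Cd79a and the T cell gene Cd3e fell, and Ptprc had a log2 change of -0.18 (adjusted p = 0.0846). The sum of 10 mesenchymal genes was 18442 to 19367 CPM, 18184 to 18505 CPM, 12592 to 12715 CPM and 32492 to 33260 CPM in the same order. In Pear1-/- most members did not move with that sum. With bleo there, Col1a1, Col1a2 and Col3a1 rose while the other 7 genes fell, and the median log2 change of the 10 was -1.19. With bleo in WT 2 of the 10 rose and 8 fell, with a median of -1.41. Ptprc, the pan-leukocyte antigen, was 1.19 lower on the log2 scale in Pear1-/- bleo than in WT bleo (SE 0.087, adjusted p = 3.71e-08). These marker levels moved with every comparison that involves bleo, and their part in the results that follow was not tested. In these bulk libraries, fewer cells of a type and less RNA per cell cannot be told apart.

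Grem1 was the member with the widest range, taken as the highest over the lowest normalized count. It had 12.1, 7.10 and 16.0 normalized counts in WT vehicle and 15.2, 16.7 and 13.1 in Pear1-/- vehicle, from 7 to 18 raw counts a library. In WT bleo it had 243, 235 and 212 normalized counts, and in Pear1-/- bleo 792, 794 and 849. All bleo libraries lay far above all vehicle libraries, and the 3 Pear1-/- bleo libraries lay above the 3 WT bleo libraries with no overlap. Of all genes tested, 68.7% did not overlap between bleo and vehicle in WT and 70.9% in Pear1-/-. Between the bleo groups 62.9% did not overlap, and between the vehicle groups 19.2%. A lack of overlap thus does not set a member apart in comparisons with bleo, here and below. The rise with bleo was 19.8-fold in WT (log2 fold change 4.31, SE 0.16, adjusted p = 6.38e-12) and 53.6-fold in Pear1-/- (5.74, SE 0.14, adjusted p = 1.35e-13). Grem1 was 3.50-fold higher in Pear1-/- bleo than in WT bleo (log2 fold change 1.81, SE 0.093, adjusted p = 1.00e-09). The vehicle groups overlapped, and their log2 difference had a 95% confidence interval of -0.20 to 0.94 (adjusted p = 0.423). The response to bleo itself was larger in Pear1-/- than in WT by 1.43 on the log2 scale (interaction of genotype and bleo, SE 0.30, adjusted p = 0.00158). Without WT vehicle replicate 2, which had the lowest Grem1 count, that difference was 1.72 (adjusted p = 0.000221).

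**Figure D1:**
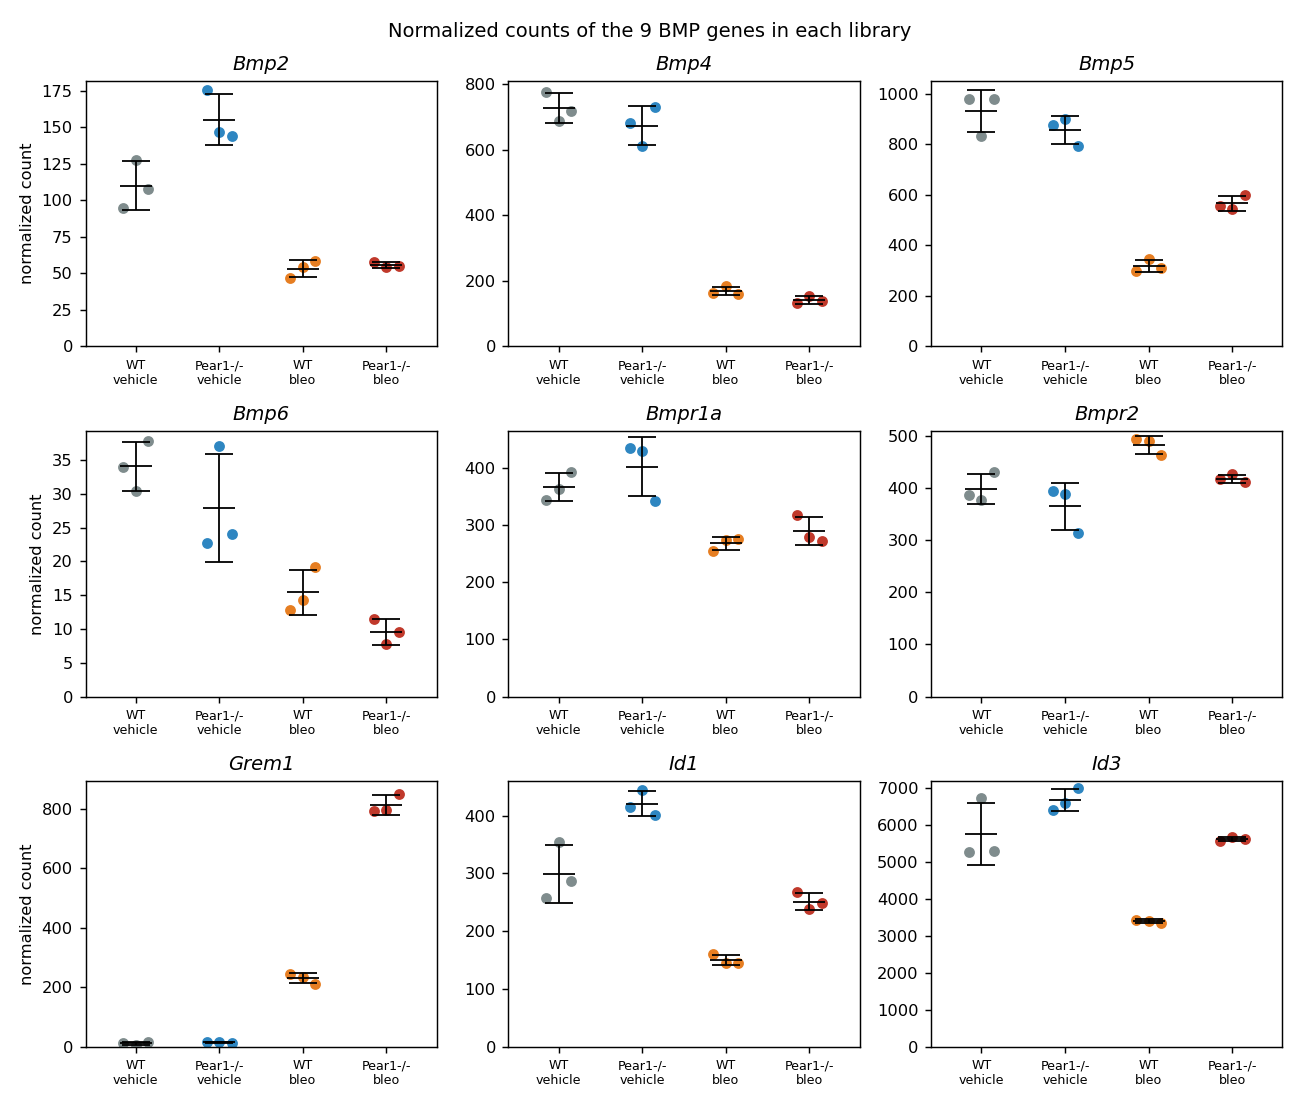
Normalized counts (y axis, linear from 0) of the 9 genes in each library, by group on the x axis, with 1 point per library and lines for the mean and SD of 3 libraries. Grem1 lies between 7.10 and 16.7 in the 6 vehicle libraries, between 212 and 243 in WT bleo and between 792 and 849 in Pear1-/- bleo, while Bmp4 lies between 611 and 777 in vehicle and between 131 and 184 in bleo.

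Bmp4 was the member that fell the most with bleo. It had 777, 687 and 719 normalized counts in WT vehicle and 681, 611 and 730 in Pear1-/- vehicle. With bleo it had 163, 184 and 159 in WT and 131, 155 and 137 in Pear1-/-. The bleo libraries lay below all vehicle libraries in both genotypes. The fall was 4.28-fold in WT (log2 fold change -2.10, SE 0.096, adjusted p = 5.13e-11) and 4.75-fold in Pear1-/- (-2.25, SE 0.096, adjusted p = 3.81e-11). These responses differed by -0.15 on the log2 scale, with a 95% confidence interval of -0.44 to 0.14 (adjusted p = 0.405). Between the bleo groups Bmp4 was 0.27 lower on the log2 scale in Pear1-/- (SE 0.10, adjusted p = 0.0478), a call at the edge of the threshold that was lost under 12 of 19 other settings, where the adjusted p over all settings ran from 0.0248 to 0.186.

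Bmp5 fell with bleo in both genotypes, and less in Pear1-/- than in WT. Its normalized counts were 977, 833 and 979 in WT vehicle and 877, 899 and 791 in Pear1-/- vehicle. They were 299, 345 and 310 in WT bleo and 554, 545 and 598 in Pear1-/- bleo, so that every Pear1-/- bleo library was above every WT bleo library and below every vehicle library. With bleo, Bmp5 fell 2.90-fold in WT (log2 fold change -1.54, SE 0.089, adjusted p = 7.46e-10) and 1.51-fold in Pear1-/- (-0.59, SE 0.085, adjusted p = 2.33e-05). The 0.94 between these responses passed the interaction test (SE 0.12, adjusted p = 3.02e-05). Pear1-/- bleo was 1.76-fold above WT bleo (log2 fold change 0.82, SE 0.089, adjusted p = 2.41e-06), and Pdgfra was higher there by 0.80 on the same scale (SE 0.067, adjusted p = 1.47e-07). Taken as a percent of the Pdgfra count of the same library, Bmp5 was 23.4% ± 2.05 in WT bleo against 23.6% ± 1.07 in Pear1-/- bleo, with 20.3% ± 0.487 in WT vehicle and 20.5% ± 1.19 in Pear1-/- vehicle (SD, n = 3 each). On that ratio the bleo groups overlapped. The vehicle groups had a log2 difference of -0.12 in Bmp5 (adjusted p = 0.316), which was -0.20 without WT vehicle replicate 2 (SE 0.069, adjusted p = 0.0178).

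Bmp2, which with Bmp4 signals through Bmpr1a, was lower with bleo in both genotypes. Its vehicle libraries had 94.6, 128 and 108 normalized counts in WT and 175, 147 and 144 in Pear1-/-. With bleo the normalized counts were 46.8, 54.0 and 58.7 in WT and 57.7, 54.2 and 55.3 in Pear1-/-. The bleo groups overlapped each other and lay below all vehicle libraries. The fall was 2.06-fold in WT (log2 fold change -1.04, SE 0.15, adjusted p = 2.26e-05) and 2.78-fold in Pear1-/- (-1.47, SE 0.14, adjusted p = 4.09e-07). Among vehicle libraries, the 3 Pear1-/- values lay above the 3 WT values, with a log2 difference of 0.49 that missed the threshold (95% confidence interval 0.20 to 0.77, adjusted p = 0.0511). Without WT vehicle replicate 2 that difference was 0.61 (SE 0.14, adjusted p = 0.000673), and the difference between the responses to bleo, -0.43 with all libraries (adjusted p = 0.125), was -0.55 (adjusted p = 0.0326). Relative to Pdgfra the values had another order, as Bmp2 was 2.44% ± 0.554 of the Pdgfra count in WT vehicle and 3.91% ± 0.386 in WT bleo, against 3.73% ± 0.413 in Pear1-/- vehicle and 2.33% ± 0.0633 in Pear1-/- bleo (SD, n = 3 each). On that ratio WT bleo lay above WT vehicle, and the bleo groups did not overlap.

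Bmp6 was the least abundant ligand among the members, with 30.4 to 37.8 normalized counts in WT vehicle and 22.7 to 37.1 in Pear1-/- vehicle. With bleo these ranges were 12.9 to 19.2 in WT and 7.74 to 11.5 in Pear1-/-. It fell 2.18-fold with bleo in WT (log2 fold change -1.12, SE 0.29, adjusted p = 0.00316) and 2.89-fold in Pear1-/- (-1.53, SE 0.31, adjusted p = 0.000564). The bleo groups did not overlap, but their log2 difference of -0.69 had a 95% confidence interval of -1.40 to 0.02 (adjusted p = 0.106). As a percent of Pdgfra, Bmp6 was higher in WT bleo, at 1.13% ± 0.221, than in WT vehicle, at 0.746% ± 0.0515, with no overlap, and was 0.670% ± 0.185 in Pear1-/- vehicle and 0.401% ± 0.0771 in Pear1-/- bleo (SD, n = 3 each). The exons of Bmp6 share 224 bases with Txndc5 on the opposite strand, a gene with 1882 to 6346 counts per library against 9 to 40 for Bmp6. The cDNA kit does not mark strand, so Bmp6 values are uncertain. The exon overlaps of Bmp4, Bmp5 and Bmpr1a were with the predicted genes Gm15217, Gm26903 and Gm17110, which had at most 9 counts in any library. They took up 89 bases in Bmp4, 290 in Bmpr1a and 1878 of 4025 exon bases in Bmp5. How reads in shared stretches were counted is not known, so Bmp5 levels set against those of other genes are uncertain.

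Levels of the 9 genes were compared per kilobase of exon (normalized count per kb), since the cDNA was full-length. The summed level of the 4 ligands was 594 ± 34.6 per kb in WT vehicle and 563 ± 15.4 in Pear1-/- vehicle (SD, n = 3 each), and with bleo 173 ± 11.8 in WT and 221 ± 6.11 in Pear1-/-. Bmp4 made up 54.5% ± 1.26 of it in WT vehicle and 43.4% ± 1.39 in WT bleo, and 28.4% ± 2.37 in Pear1-/- bleo. Bmp5 made up 38.8% ± 1.57, 45.7% ± 0.295 and 63.4% ± 2.10 of the same sums, and the 3 libraries of each bleo group did not overlap in either share. Grem1 was the lowest of the 9 genes in both vehicle groups, at 2.83 ± 1.08 and 3.61 ± 0.436 per kb. It was in place 5 in WT bleo, at 55.4 ± 3.96 per kb, and in place 3 in Pear1-/- bleo, at 196 ± 7.82 per kb, behind Id3 and Id1. Set against Bmp2 and Bmp4 together, Grem1 was 0.00797 ± 0.00301 of their level in WT vehicle and 0.0106 ± 0.00212 in Pear1-/- vehicle. With bleo this ratio was 0.617 ± 0.057 in WT and 2.50 ± 0.203 in Pear1-/-. Transcripts of the antagonist were thus above those of Bmp2 and Bmp4 in all 3 Pear1-/- bleo libraries, where the ratio was 2.28 to 2.67, and below them in the other 9 libraries. Bmp7, whose product gremlin-1 also binds, is not a member and was left out of this ratio. It had 138 ± 9.98 per kb in WT vehicle and 143 ± 11.6 in Pear1-/- vehicle. With bleo it had 30.9 ± 4.68 in WT and 25.9 ± 3.09 in Pear1-/-. Id3 was the highest of the 9 in every group. Neighbours in this order overlapped only for Id1 and Bmp5 in WT vehicle and for Bmp5 and Bmp4 in WT bleo.

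**Figure D2:**
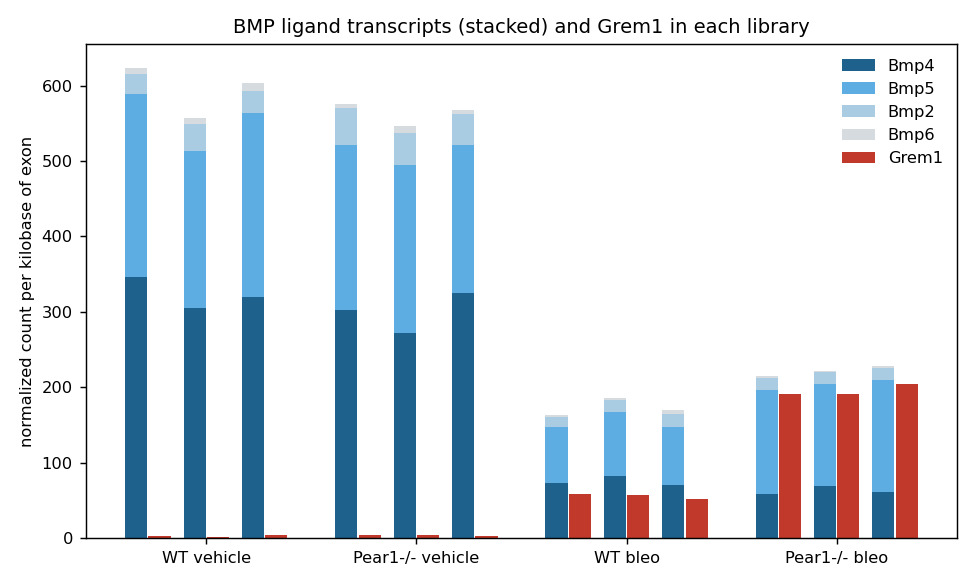
Normalized count per kilobase of exon (y axis, linear from 0) in each of the 12 libraries, with Bmp4, Bmp5, Bmp2 and Bmp6 stacked in blue and grey and Grem1 as a red bar beside them. The ligand stacks reach 546 to 624 in vehicle and 164 to 228 in bleo, while the Grem1 bars are under 5 in vehicle, 51.0 to 58.7 in WT bleo and 191 to 205 in Pear1-/- bleo.

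The sequence just ahead of the start annotated by RefSeq is shown for Grem1, the member that rose most, Bmp4, the member that fell most, and Id3, the most abundant target among the members. These are 250 bases each from RefSeq on GRCm38.p6, 5′ to 3′ on the strand of the gene, at chr2:113758649-113758898 (minus) for Grem1, chr14:46390670-46390919 (minus) for Bmp4 and chr4:136143572-136143821 (plus) for Id3. Capitals mark GGCGCC, a GC-rich SMAD1 and SMAD5 binding motif, which reads the same on both strands.
Grem1: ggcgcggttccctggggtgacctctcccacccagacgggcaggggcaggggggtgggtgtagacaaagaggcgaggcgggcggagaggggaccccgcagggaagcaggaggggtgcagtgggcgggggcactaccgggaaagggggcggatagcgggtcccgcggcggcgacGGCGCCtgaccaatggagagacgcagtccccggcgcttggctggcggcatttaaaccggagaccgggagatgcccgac
Bmp4: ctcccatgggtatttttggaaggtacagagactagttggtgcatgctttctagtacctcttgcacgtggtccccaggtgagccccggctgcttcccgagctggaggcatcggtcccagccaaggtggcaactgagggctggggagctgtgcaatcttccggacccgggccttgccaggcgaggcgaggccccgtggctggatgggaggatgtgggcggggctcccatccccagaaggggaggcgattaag
Id3: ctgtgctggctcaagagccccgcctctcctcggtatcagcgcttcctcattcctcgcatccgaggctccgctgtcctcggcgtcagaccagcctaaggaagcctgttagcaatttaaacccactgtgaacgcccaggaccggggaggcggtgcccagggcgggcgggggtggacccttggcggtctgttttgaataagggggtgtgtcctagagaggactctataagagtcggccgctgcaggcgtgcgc
The window of Id3 lies inside the longer gene model of GENCODE, which starts at base 136143497. The motif lay 78 bases ahead of the start of Grem1 and was in neither of the other sequences shown. It was found in 3 of 7 members in the RefSeq promoter table (Grem1, Bmpr2 and Bmpr1a; Bmp2 and Id1 were not matched) and in 9.59% of 32851 promoters of the same length. The motif holds only G and C. These bases made up 72.0% of the window of Grem1, 64.0% of Bmpr2 and 78.8% of Bmpr1a. In the other members they made up 42.8% (Bmp5) to 68.8% (Bmp6). The share over all promoters was not matched for this, so the shares are not compared. The longer form with GTCT 5 bases further on was in none of the 7 and in 0.07% of all. A match describes these letters in this window and is no measure of binding.

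Taken as the highest over the lowest normalized count, the receptor genes had the narrowest ranges of the 9 over the 12 libraries. Bmpr1a, a type I receptor of BMP2 and BMP4, had 344 to 394 normalized counts in WT vehicle and 343 to 435 in Pear1-/- vehicle. With bleo it had 255 to 275 in WT and 273 to 318 in Pear1-/-. It fell 1.36-fold with bleo in WT (log2 fold change -0.44, SE 0.10, adjusted p = 0.00134) and 1.39-fold in Pear1-/- (-0.47, SE 0.099, adjusted p = 0.000772). The bleo groups overlapped, with a log2 difference of 0.10 (95% confidence interval -0.12 to 0.32). Bmpr2, the type II BMP receptor known for its mutations in heritable pulmonary hypertension, had 387, 376 and 432 normalized counts in WT vehicle and 394, 389 and 313 in Pear1-/- vehicle. Its bleo libraries had 494, 491 and 463 in WT and 416, 426 and 411 in Pear1-/-. It was the only member besides Grem1 that was higher with bleo, by 0.29 on the log2 scale in WT (SE 0.089, adjusted p = 0.00991), and had 0.20 in Pear1-/- (SE 0.089, adjusted p = 0.0683). All 3 Pear1-/- bleo values were below all 3 WT bleo values, by 0.22 on the log2 scale (SE 0.088, adjusted p = 0.0525), which did not pass. That difference passed under 5 of 19 other settings, one of them without WT vehicle replicate 2 (-0.22, adjusted p = 0.0127), where the change with bleo in Pear1-/- passed as well (0.19, adjusted p = 0.0273). Relative to Pdgfra, both receptors were higher with bleo. Bmpr1a was 8.07% ± 0.791 of the Pdgfra count in WT vehicle and 19.7% ± 0.783 in WT bleo. In Pear1-/- it was 9.66% ± 1.18 with vehicle and 12.1% ± 0.984 with bleo. Bmpr2 was 8.74% ± 0.601, 35.5% ± 2.002, 8.76% ± 1.02 and 17.5% ± 0.461 in the same order (SD, n = 3 each). On that ratio the bleo groups did not overlap for either gene.

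The target genes Id1 and Id3, which encode inhibitors of basic helix-loop-helix factors, were lower with bleo and higher in Pear1-/- bleo than in WT bleo. Id1 had 257, 354 and 286 normalized counts in WT vehicle and 416, 444 and 402 in Pear1-/- vehicle. Its bleo libraries had 160, 145 and 146 in WT and 267, 238 and 249 in Pear1-/-. Both Pear1-/- groups lay above the WT group of the same treatment with no overlap. The fall with bleo was 1.98-fold in WT (log2 fold change -0.99, SE 0.11, adjusted p = 1.56e-06) and 1.67-fold in Pear1-/- (-0.74, SE 0.10, adjusted p = 1.58e-05). Id1 was 1.66-fold higher in Pear1-/- bleo than in WT bleo (log2 fold change 0.73, SE 0.11, adjusted p = 6.77e-05) and 1.40-fold higher in Pear1-/- vehicle than in WT vehicle (0.48, SE 0.10, adjusted p = 0.0388). The interaction, 0.25 on the log2 scale, had a 95% confidence interval of -0.07 to 0.57 (adjusted p = 0.216). Without WT vehicle replicate 2, the highest of its group, the vehicle difference was 0.62 (adjusted p = 1.66e-06). It lost its call under 13 of 19 other settings, with an adjusted p of up to 0.209.

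Id3 had 5262, 6730 and 5289 normalized counts in WT vehicle and 6407, 6607 and 7001 in Pear1-/- vehicle. With bleo it had 3431, 3415 and 3342 in WT and 5556, 5666 and 5631 in Pear1-/-. WT bleo was below every other library, and Pear1-/- bleo lay above WT vehicle replicates 1 and 3 and below replicate 2. The fall was 1.68-fold in WT (log2 fold change -0.75, SE 0.082, adjusted p = 1.21e-06) and 1.18-fold in Pear1-/- (-0.24, SE 0.082, adjusted p = 0.0171). The responses differed by 0.51 on the log2 scale (SE 0.12, adjusted p = 0.00323), and by 0.38 without WT vehicle replicate 2 (adjusted p = 5.92e-06). Pear1-/- bleo was 1.64-fold above WT bleo (log2 fold change 0.71, SE 0.082, adjusted p = 4.57e-06). The vehicle groups overlapped in the count of WT vehicle replicate 2, with a log2 difference of 0.21 (adjusted p = 0.106) that was 0.33 without it (adjusted p = 1.17e-06). As a percent of Pdgfra the Id genes gave another order, since Id3 was 250% ± 8.76 in WT bleo and 235% ± 3.94 in Pear1-/- bleo, against 128% ± 28.5 in WT vehicle and 160% ± 8.39 in Pear1-/- vehicle (SD, n = 3 each). Id1 was 11.04% ± 0.724 in WT bleo and 10.5% ± 0.554 in Pear1-/- bleo on that ratio, and these overlapped. It was 6.63% ± 1.61 in WT vehicle and 10.1% ± 0.430 in Pear1-/- vehicle. On that ratio Id1 was thus higher with bleo in WT, with no overlap, while the Pear1-/- groups overlapped.

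Counted over the 9 members, bleo changed all 9 in WT, with 2 higher and 7 lower, where 68% of all genes tested were called (31.4% higher and 36.6% lower). In Pear1-/- it changed 8, with 1 higher and 7 lower, against 62.3% of all genes (28.9% and 33.4%). Between Pear1-/- bleo and WT bleo, 4 were higher, 1 was lower and 4 were not called, against 46% of all genes (22.1% and 23.9%). Between the vehicle groups 1 was higher and 8 were not called, against 4.5% of all genes (0.855% and 3.65%), and the interaction called 3, all higher, against 37% (17.9% and 19.1%). The share of all genes called was so large in the bleo comparisons that these counts do not set the members apart. Changes of more than 2-fold were called for 5 members in WT and 4 in Pear1-/- with bleo, against 33.9% and 27.8% of all genes. Grem1 alone passed that bound between the bleo groups and in the interaction, against 15% and 15.7%, and no member did between the vehicle groups, against 2.36%. The median log2 change of the 9 was -0.99 in WT and -0.59 in Pear1-/-, beside -0.07 and -0.05 over all genes tested. With 3 libraries a group, an exact two-sided permutation test of 1 gene cannot go below p = 0.1, the value it gave for all 9 genes in both comparisons of bleo with vehicle. The comparisons share libraries (each group enters 2 of the 4 contrasts), and their values are set side by side only.

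**Figure D3:**
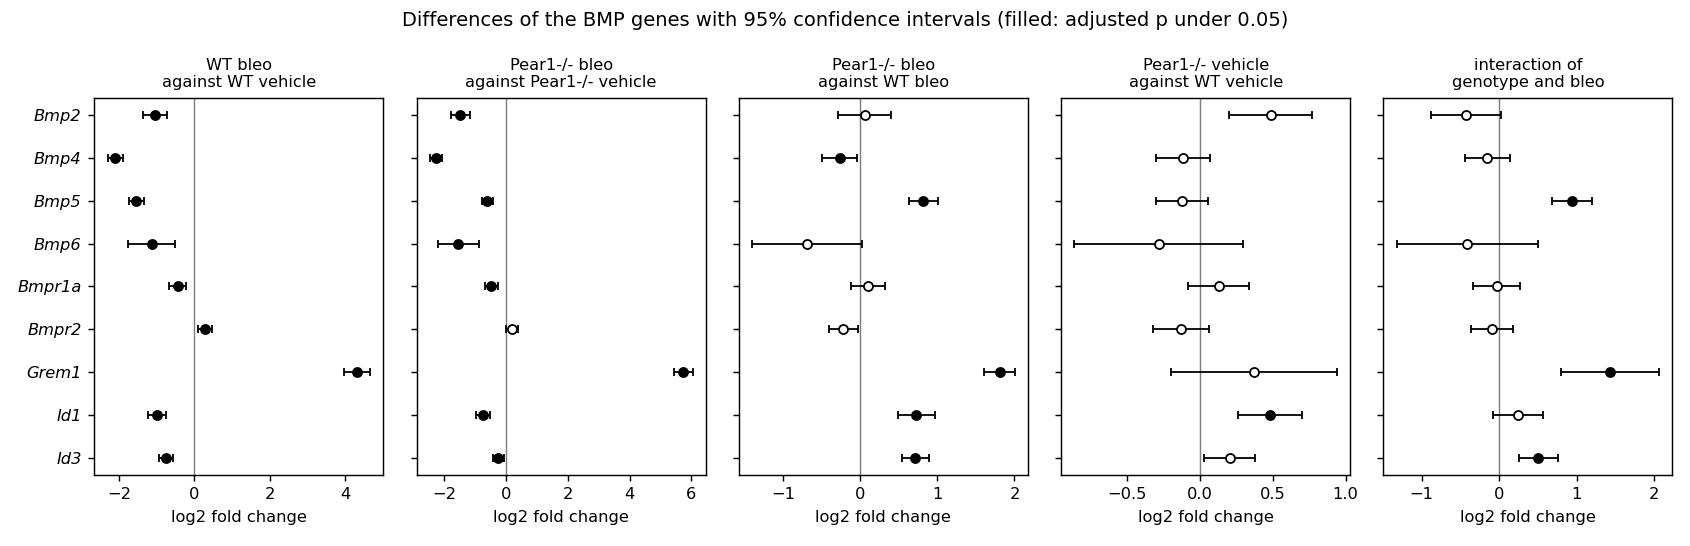
Log2 fold changes (x axis) of the 9 genes (rows) in the 4 comparisons and in the interaction, 1 panel each with its own scale, with 95% confidence intervals and filled points for an adjusted p under 0.05. Grem1 is the only point far to the right with bleo, at 4.31 in WT and 5.74 in Pear1-/-, and in the interaction panel Bmp5, Grem1 and Id3 are filled.

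The wider pathway was read from 43 further BMP genes, of which 42 were in the table and 36 passed the filter. With bleo, 9 of the 36 rose and 22 fell in WT, and 6 rose and 19 fell in Pear1-/-, where 68% and 62.3% of all genes tested were called. Between Pear1-/- bleo and WT bleo 16 were higher and 11 lower, against 46% of all genes, and between the vehicle groups 1 was higher and 3 lower, against 4.5%. Without WT vehicle replicate 2 the vehicle groups differed in more of them, with 7 higher and 9 lower, against 46.1% of all genes. The median log2 change of the 36 was -0.68 in WT and -0.59 in Pear1-/- with bleo, beside -0.07 and -0.05 over all genes tested. The interaction called 17 higher and 8 lower, against 37% of all genes. The list was not tested against other genes.

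Among the other antagonists, Fst and Bmper rose with bleo in both genotypes, as Grem1 did. Fst encodes follistatin, which binds activins and some BMPs, and its normalized count was 67.8 ± 10.8 in WT vehicle and 60.5 ± 10.5 in Pear1-/- vehicle (SD, n = 3 each). With bleo it was 496 ± 14.3 in WT and 1213 ± 20.9 in Pear1-/-. It rose with bleo by 2.87 on the log2 scale in WT (SE 0.11, adjusted p = 9.61e-12) and 4.33 in Pear1-/- (SE 0.11, adjusted p = 2.20e-13), and was 2.42-fold higher in Pear1-/- bleo than in WT bleo (adjusted p = 2.11e-08). Bmper, a secreted BMP-binding protein, had 240 ± 76.7 normalized counts in WT vehicle and 143 ± 11.3 in Pear1-/- vehicle. With bleo it had 378 ± 22.3 in WT and 1087 ± 23.0 in Pear1-/-, and was 2.85-fold higher in Pear1-/- bleo than in WT bleo (adjusted p = 1.07e-06). Bmper was also 0.75 lower on the log2 scale in Pear1-/- vehicle than in WT vehicle (adjusted p = 0.0414), although the groups overlapped in WT vehicle replicate 2, which had 151 normalized counts. That vehicle call was lost under 13 of 19 other settings (adjusted p up to 0.209), and without replicate 2 the difference was -1.002 (SE 0.10, adjusted p = 1.00e-09). The rise of Bmper with bleo in WT was 0.68 on the log2 scale (SE 0.16, adjusted p = 0.00193) and 0.42 without that library (SE 0.088, adjusted p = 7.37e-05). Fstl3, a relative of follistatin, fell with bleo by 1.47 in WT (SE 0.18, adjusted p = 3.59e-06) and had 0.13 in Pear1-/- (adjusted p = 0.504). It was 2.34-fold higher in Pear1-/- bleo than in WT bleo (adjusted p = 4.38e-05). The antagonists Chrd, Chrdl1, Nbl1 and Twsg1 fell with bleo in both genotypes, with log2 changes from -2.27 for Chrdl1 to -1.35 for Nbl1 in WT and from -1.77 for Chrd to -0.96 for Twsg1 in Pear1-/-. Compared with WT bleo, Pear1-/- bleo was higher in Twsg1 by 0.64 (adjusted p = 9.44e-05), Chrd by 0.55 (adjusted p = 0.0301) and Chrdl1 by 0.52 (adjusted p = 0.0104). Nbl1 was 0.19 lower there (adjusted p = 0.0205). The calls of Chrd, Chrdl1 and Nbl1 were lost under 4, 1 and 5 of 19 other settings. Of 10 antagonist genes tested, 3 rose (Fst, Bmper and Nog) and 6 fell with bleo in WT, against 31.4% and 36.6% of all genes. In Pear1-/- bleo 6 were higher and 2 lower than in WT bleo, against 22.1% and 23.9%. Nog, the noggin gene, had 0 to 27 counts in all libraries and at most 2 in WT vehicle, so no fold is given. Crim1, which encodes a membrane protein that binds BMPs, was 0.51 lower in Pear1-/- bleo than in WT bleo (SE 0.17, adjusted p = 0.0236), a call lost under 4 of 19 other settings.

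The further ligands Bmp7 and Bmp3 fell with Bmp4. Bmp7 changed by -2.15 on the log2 scale with bleo in WT (SE 0.11, adjusted p = 2.86e-10) and -2.46 in Pear1-/- (SE 0.11, adjusted p = 1.02e-10). Bmp3, whose product opposes other BMPs, changed by -2.33 (SE 0.23, adjusted p = 3.65e-07) and -1.47 (SE 0.23, adjusted p = 5.64e-05). Bmp3 had 1718, 790 and 1817 normalized counts in WT vehicle, with the low value in replicate 2, and 657 to 753 in Pear1-/- vehicle. The interaction for Bmp3 was 0.87 (SE 0.32, adjusted p = 0.0454) and lost its call under 12 of 18 other settings. Unlike those of Bmp5, its bleo groups overlapped, with a log2 difference of -0.15 (adjusted p = 0.639), while in vehicle Pear1-/- was 1.02 lower than WT (adjusted p = 0.0388), a call lost under 13 of 19 other settings. Without WT vehicle replicate 2 the interaction was 1.16 (SE 0.12, adjusted p = 4.58e-10). Bmp8a had 7 to 15 counts in the vehicle libraries, 0, 0 and 1 in WT bleo and 3 to 8 in Pear1-/- bleo. It was called lower with bleo in WT (adjusted p = 0.00017) and higher in Pear1-/- bleo than in WT bleo (adjusted p = 0.00771), with no fold given at these counts.

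Type I receptors other than Bmpr1a went in different directions. Acvr1, which encodes ALK2, had a log2 change of -0.15 with bleo in WT (adjusted p = 0.345) and rose by 1.01 in Pear1-/- (SE 0.13, adjusted p = 8.49e-06). Bmpr1b, a low gene at 8.16 to 44.7 normalized counts, fell by 1.02 in WT (adjusted p = 0.0111) and rose by 1.99 in Pear1-/- (adjusted p = 3.23e-05). Its call in WT was lost under 1 of 19 other settings (adjusted p = 0.0626). The interaction passed for both, at 1.15 for Acvr1 (adjusted p = 0.000218) and 3.01 for Bmpr1b (adjusted p = 8.53e-05). Acvrl1 and Eng, a receptor and its co-receptor best known from endothelium, fell in both genotypes, by 0.61 and 0.66 in WT and by 1.27 and 0.95 in Pear1-/-. Over the same groups the sum of 10 endothelial markers was 524 to 546 CPM in WT vehicle and 528 to 571 CPM in Pear1-/- vehicle. With bleo it was 301 to 314 CPM in WT and 319 to 340 CPM in Pear1-/-, and its part in these falls was not tested. Acvrl1 fell more in Pear1-/-, with an interaction of -0.66 (SE 0.15, adjusted p = 0.0031), and was 0.45 lower in Pear1-/- bleo than in WT bleo (SE 0.11, adjusted p = 0.00265). The difference between the falls of Eng was -0.29 (adjusted p = 0.186), and -0.47 without WT vehicle replicate 2 (adjusted p = 0.000162).

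Of the further type II receptor genes, Acvr2a fell with bleo in both genotypes and Acvr2b in Pear1-/- alone. The co-receptor genes Rgma and Rgmb, of the repulsive guidance molecule family, fell in both genotypes. Acvr2a fell by 0.60 in WT (SE 0.082, adjusted p = 1.29e-05) and by 0.28 in Pear1-/- (SE 0.080, adjusted p = 0.00623), and was 0.29 higher in Pear1-/- bleo than in WT bleo (SE 0.082, adjusted p = 0.00968). That difference was 0.22 without WT bleo replicate 1 (adjusted p = 0.0597), and the fall in Pear1-/- lost its call with no filter on low counts (adjusted p = 0.101). Acvr2b was a low gene, with means of 12.6 to 16.4 normalized counts in the other groups and 3.24 ± 1.70 in Pear1-/- bleo (SD, n = 3). It was lower there than in Pear1-/- vehicle (adjusted p = 0.00134) and than in WT bleo (adjusted p = 0.00314). In WT its log2 change with bleo was 0.28 (adjusted p = 0.586). Rgma fell by 1.62 in WT and 0.99 in Pear1-/-, and was 0.73 higher in Pear1-/- bleo than in WT bleo (SE 0.18, adjusted p = 0.00404). Rgmb fell by 1.03 and 0.99, and its bleo groups overlapped, with a log2 difference of 0.08 (adjusted p = 0.552).

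All 4 signal transducers tested differed between the bleo groups, Smad1 and Smad4 being lower in Pear1-/- bleo and Smad5 and Smad9 higher, in a comparison that called 46% of all genes tested. Smad1 rose by 0.96 on the log2 scale with bleo in WT (SE 0.12, adjusted p = 5.38e-06), had 0.00 in Pear1-/- (95% confidence interval -0.26 to 0.26), and was lower in Pear1-/- bleo than in WT bleo by 0.85 (SE 0.12, adjusted p = 2.66e-05). Smad5 fell by 0.41 in WT (SE 0.080, adjusted p = 0.000351), had 0.18 in Pear1-/- (adjusted p = 0.0548), and was 0.66 higher in Pear1-/- bleo than in WT bleo (SE 0.079, adjusted p = 6.58e-06). Smad4, the partner shared with TGF-β signals, rose by 0.57 in WT (SE 0.11, adjusted p = 0.000324), had -0.21 in Pear1-/- (adjusted p = 0.104) and was 0.47 lower in Pear1-/- bleo than in WT bleo (SE 0.11, adjusted p = 0.00234). Smad9, a low gene with 8.10 to 48.5 normalized counts, fell by 1.71 in WT (SE 0.41, adjusted p = 0.00178), had 0.34 in Pear1-/- (adjusted p = 0.418) and was 1.56 higher in Pear1-/- bleo (SE 0.41, adjusted p = 0.00538). The interaction, which called 37% of all genes, passed for all 4, at -0.96 for Smad1, 0.59 for Smad5, -0.78 for Smad4 (adjusted p = 0.00118) and 2.06 for Smad9 (adjusted p = 0.00845).

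Inhibitors inside the cell and at the membrane also differed in direction. Bambi, a decoy receptor of the pathway, fell in WT by 1.19 and in Pear1-/- by 0.63, and was 0.44 higher in Pear1-/- bleo than in WT bleo (SE 0.090, adjusted p = 0.00101). Smurf2, a ubiquitin ligase that acts on SMADs and receptors, was lower there by 0.94 (SE 0.10, adjusted p = 1.98e-06). Smad7, an inhibitory SMAD, and Smurf1, a relative of Smurf2, rose with bleo in WT by 0.41 (SE 0.11, adjusted p = 0.00413) and 0.66 (SE 0.11, adjusted p = 0.000112). In Pear1-/- they had -0.02 and 0.19, neither of which passed. Smad7 was 0.43 lower in Pear1-/- bleo than in WT bleo (SE 0.11, adjusted p = 0.00431), and Smurf1 0.30 lower (SE 0.11, adjusted p = 0.0319), a call that was lost under 7 of 19 other settings.

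Id2 and Id4 differed from Id1 and Id3 in being lower in Pear1-/- bleo than in WT bleo. Id2 had 2558 ± 105 normalized counts in WT vehicle and 2759 ± 190 in Pear1-/- vehicle (SD, n = 3 each). With bleo it had 5675 ± 65.4 in WT and 4561 ± 88.5 in Pear1-/-. It rose with bleo by 1.16 on the log2 scale in WT (SE 0.065, adjusted p = 5.57e-10) and 0.73 in Pear1-/- (SE 0.065, adjusted p = 1.59e-07), and was 0.33 lower in Pear1-/- bleo than in WT bleo (SE 0.064, adjusted p = 0.000657). The summed leukocyte markers had the same order of groups, highest in WT bleo and next in Pear1-/- bleo, and their part in the Id2 values was not tested. Id4, a low gene with 5.16 to 55.0 normalized counts, fell with bleo by 1.26 in WT (SE 0.31, adjusted p = 0.0023) and 1.86 in Pear1-/- (SE 0.34, adjusted p = 0.000267). It was 0.96 lower in Pear1-/- bleo than in WT bleo (SE 0.37, adjusted p = 0.0472), a call lost under 11 of 19 other settings. Atoh8, a BMP target that encodes a basic helix-loop-helix factor, fell by 0.87 in WT and 0.37 in Pear1-/-, and was 0.51 higher in Pear1-/- bleo than in WT bleo (SE 0.13, adjusted p = 0.00457). Its fall in Pear1-/- lost the call under 2 of 19 other settings, without Pear1-/- bleo replicate 1 and with no filter on low counts (adjusted p up to 0.109). Msx1, a homeobox target of BMP signals, fell with bleo in WT by 0.70 (SE 0.13, adjusted p = 0.000221), had 0.04 in Pear1-/- (adjusted p = 0.766) and was 2.09-fold higher in Pear1-/- bleo than in WT bleo (log2 fold change 1.07, SE 0.12, adjusted p = 4.91e-06).

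**Figure D4:**
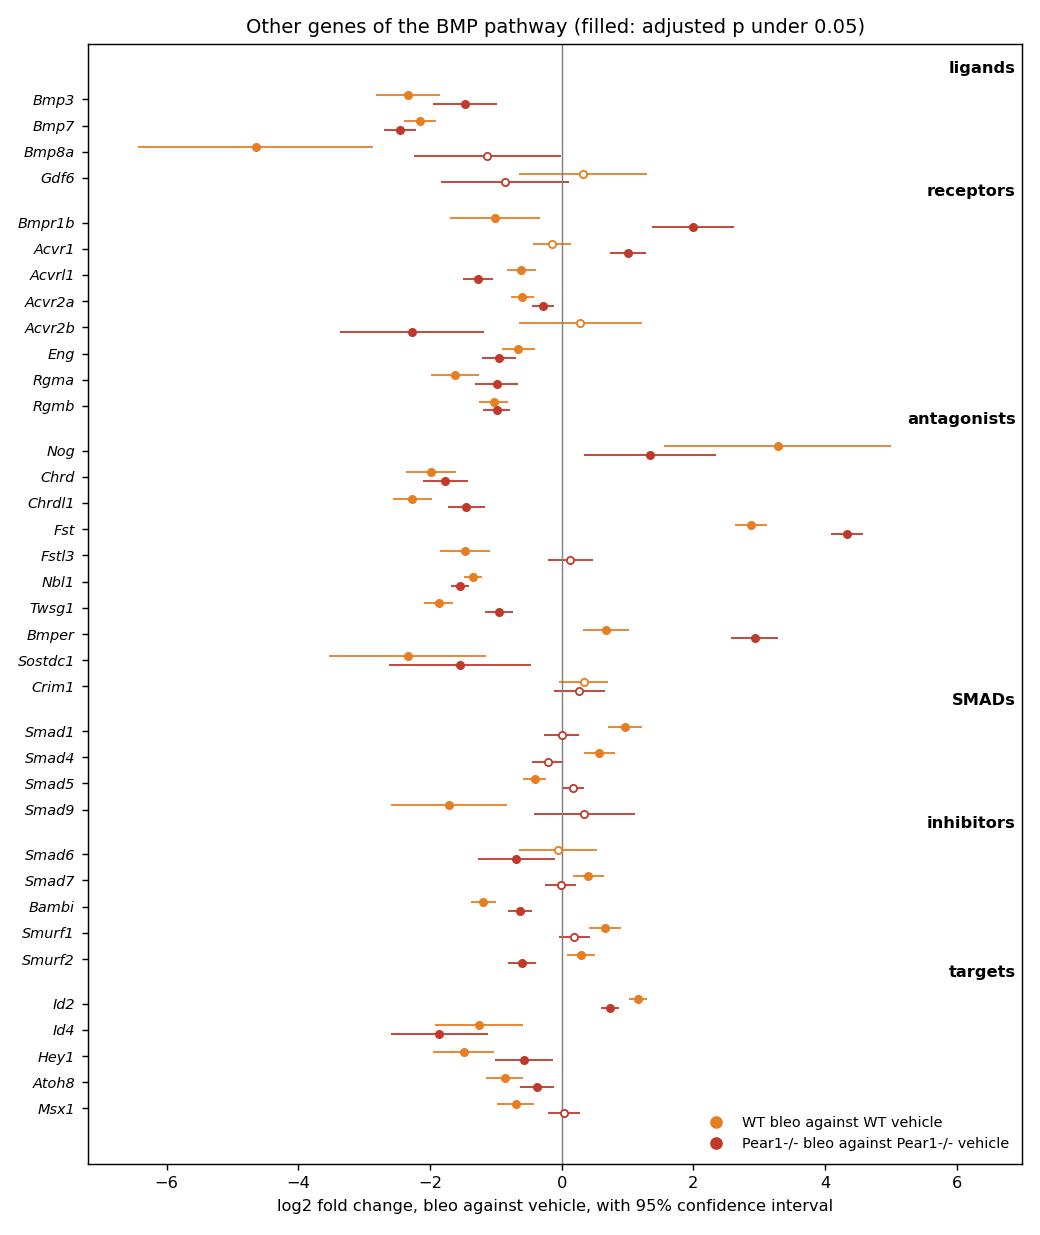
Log2 fold changes of bleo against vehicle (x axis) with 95% confidence intervals for 36 further BMP genes, grouped by role, in WT (orange) and in Pear1-/- (red), with filled points for an adjusted p under 0.05. Fst, at 2.87 and 4.33, lies far to the right in both genotypes while Bmp7 and Nbl1 lie to the left in both, and the wide intervals of Bmp8a and Nog come from groups at or near the floor of 3 counts.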

How the data were processed

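RNA of flow-sorted Cd140a+ lung cells was made into full-length cDNA (SMART-Seq v4, no strand mark) and sequenced in 12 libraries. Per the labels and the study's methods, the authors aligned reads to GRCm38 with HISAT2. The submitters' processing notes also name FastQC. The methods say that alignments were mapped to an mm10 reference transcriptome. The program that counted reads and the release of its annotation are not given in the sources used here. The authors deposited a table of raw counts for 40760 genes and a normalized table, whose values, taken as signal, were found to be deposited counts over a DESeq2 size factor in 100% of cases (whole within 0.01 after multiplication). Table columns left unmapped to a sample: 0. Coordinates and exon lengths were taken from GENCODE M21 on GRCm38.

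Counts were fitted with edgeR 4.0.16 (R 4.3.3) by the quasi-likelihood test with TMM scaling, the filterByExpr filter (minimum count 10) and 1 mean per group over all 12 libraries. P-values were adjusted by Benjamini-Hochberg over 17418 genes, called means an adjusted p under 0.05, and SE is the log2 fold change divided by the square root of its F. The interaction is the change with bleo in Pear1-/- minus that in WT. Alternatives used DESeq2 1.42.0, limma 3.58.1 on log2(normalized value + 1), other size factors, no filter, 2 groups only, a replicate block, reads recovered from the normalized table, and each library left out in turn. Figures and ratios were made with Python 3.11.15.

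The members and lists were chosen with earlier results of these data known. A further pathway gene was left out of the list and is not reported here. All members were described, and further pathway genes were named if their mean log2 CPM was at least 3 or their adjusted p passed between Pear1-/- bleo and WT bleo. Nog met neither condition and was named after its values were seen. The other 4 genes tested enter the counts and the plot only. For each member the 2 most correlated genes were listed. Replicate numbers were not used as pairs. Intervals and the floor of 3 counts cover counting or library spread only, and no molecular identifiers were used. The chi-square per degree of freedom between replicates was at least 1.35, so none were counted as 1 library.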

Additional observations from a re-analysis of the deposited data

Results flagged for a closer look

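The response to bleo differed between genotypes in the interaction test for 3 of the 9 genes, where 37% of all genes tested were called. On the log2 scale the difference was 0.94 for Bmp5 (-1.54 in WT and -0.59 in Pear1-/-), 1.43 for Grem1 (4.31 and 5.74) and 0.51 for Id3 (-0.75 and -0.24). Each kept its call under the 18 other settings in which it was computed, with values from 0.85 to 1.02 for Bmp5, 1.13 to 1.72 for Grem1 and 0.38 to 0.56 for Id3. Pdgfra moved likewise, with an interaction of 0.94 (SE 0.093, adjusted p = 2.44e-06), and Ptprc the other way, with -1.40 (SE 0.12, adjusted p = 7.85e-07), and their part in these differences was not tested. The genes that followed Id3 most closely over the 12 libraries were the immunoglobulin genes Ighv1-72 and Igkv8-28 (Pearson's r = 0.995 each). The part of B cells and plasma cells in the Id3 difference was not tested either.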

How the results depend on the processing

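Of the tests of the 9 genes under other settings, 798 kept their direction and side of the threshold, 28 lost the call, 15 gained one and 5 changed sign. The changes of sign were values near 0 that were never called, for Bmpr1a, interaction of genotype and bleo (-0.13 to 0.029 with a library left out, above 0 without WT vehicle replicate 1, Pear1-/- vehicle replicate 1 or 2, or Pear1-/- bleo replicate 3) and for Bmp2, Pear1-/- bleo against WT bleo (-0.031 to 0.14, below 0 without WT bleo replicate 1). The number of members lower in Pear1-/- bleo than in WT bleo, 1 with the settings of the report, was 0 with DESeq2 size factors in edgeR, 0 with the DESeq2 Wald test, 0 with no filter on low counts, 2 with only the 2 groups compared, 0 with the replicate block and 0 to 2 when a library was left out. Replicate numbers did not pair the libraries, as 0 of 18 same-numbered pairs had a correlation of deviations over 0.1 (lowest -0.161, highest 0.0997), and with the block 7789 genes were called between the bleo groups against 8012 without it. The comparison of Pear1-/- vehicle against WT vehicle moved most. Its 784 called genes became 1484 with DESeq2, 33 with limma, 5638 with no filter, 0 with only the 2 groups compared and 0 to 8029 with a library left out, the 8029 coming without WT vehicle replicate 2. Members higher there, 1 in the report, were 0 with limma, 3 with no filter, 0 with only the 2 groups compared and 0 to 3 with a library left out, and members lower were 0 to 1. Without a filter, 19438 genes were called for WT bleo against WT vehicle. Members higher with bleo in Pear1-/- were 2 with only the 2 groups compared and 1 to 2 with a library left out, as Bmpr2 crossed the threshold, and members lower in the interaction were 0 to 1 (Bmp2). Id3 lost its call for bleo in Pear1-/- under 3 of 19 settings (adjusted p up to 0.113). Of the called tests of named pathway genes under other settings, 1781 kept their call and 152 lost it. Causes were not tested. Depth limits the precision of Grem1 in vehicle (7 to 18 counts) and of Bmp6 (9 to 40).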

Other observations

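The genes whose log2 CPM followed each member most closely over the 12 libraries were searched among 10702 genes (10703 for Bmp6), with Pearson's r as a description only, since the libraries fall into 4 groups. Grem1 was followed by Rgs16 (r = 0.998) and 1810011O10Rik (0.994), Bmp4 by Adh1 (0.998) and Faim2 (0.997), and Bmp5 by Fgf7, a fibroblast growth factor (0.996), and Stbd1 (0.994). Bmp2 was followed by S1pr1 (0.984) and Txnip (0.983), Bmp6 by D430042O09Rik (0.973) and Fam49a (0.965), Bmpr1a by the mitochondrial gene mt-Co1 (0.966) and Pcmtd2 (0.951), and Bmpr2 by Lcorl (0.968) and Suz12 (0.960). Id1 was followed by Trp53inp1 (0.988) and Slfn4 (0.987). The nearest to Id3 were the immunoglobulin variable genes Ighv1-72 (0.995) and Igkv8-28 (0.995), which are expressed in B cells and plasma cells. Id3 is also expressed in B cells, and the part of such cells in the Id3 values was not tested. Among the members themselves, r was 0.950 for Id1 and Id3, 0.917 for Bmp2 and Bmp4, and -0.978 for Bmp4 and Grem1.

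Per Pdgfra count, Bmp4 was 16.0% ± 0.573 in WT vehicle and 16.2% ± 1.58 in Pear1-/- vehicle, and with bleo 12.4% ± 1.19 in WT and 5.90% ± 0.555 in Pear1-/-. Grem1 was 0.254% ± 0.0859, 0.359% ± 0.0401, 16.9% ± 1.53 and 33.9% ± 1.25 in the same order (SD, n = 3 each). For both genes the bleo groups did not overlap on this ratio. The summed level of 10 epithelial markers was 4815 to 6098 CPM in WT vehicle and 5727 to 6547 CPM in Pear1-/- vehicle, and with bleo 1671 to 1699 CPM in WT and 749 to 759 CPM in Pear1-/-. With bleo 2 of the 10 rose and 8 fell in WT, and 1 rose and 9 fell in Pear1-/-. Compared with WT bleo, 1 was higher in Pear1-/- bleo, 6 were lower and 3 were not called. The sum of 7 mural markers was 298 to 339, 295 to 317, 198 to 201 and 491 to 514 CPM in the same order of groups. Single mural markers differed from their sum, since with bleo in Pear1-/- Des and Cspg4 rose while 4 of the 7 fell, and the median log2 change was -0.34. The sum of 5 mesothelial markers was 51.5 to 87.9, 48.0 to 50.3, 22.6 to 23.9 and 42.1 to 45.7 CPM.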
